A study of Mus musculus with 45 samples.

Results

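Inflammatory monocytes (iMo) were compared with alveolar macrophages (AM) of the mouse lung 6h after lipopolysaccharide (LPS), over all genes. The comparison rests on 5 of the 45 libraries in the deposited table, 2 of iMo and 3 of AM, chosen by their labels for cell type, route and time. All mice were C57BL/6J, an inbred strain, and no allele or transgene is given in the labels. Both cell types were sorted by flow cytometry from lungs of mice given LPS into the peritoneum (intraperitoneal, ip). Their polyadenylated RNA was amplified from low input with a modified Smart-seq2 protocol. As the baseline of each cell type, 2 iMo libraries and 4 AM libraries of untreated mice (0h) were used. The labels give no dose of LPS and no age or sex of the mice. Library titles end in a code, and those of iMo A, iMo B, AM A and AM B at 6h share 1 code. The third AM library has another code and no letter and is called AM N. The labels do not say whether replicates came from separate animals, so a p-value here reflects only how libraries vary, which may be technical. That spread was estimated over 27 libraries of 0h and ip in 12 groups, which include other times and another cell type.

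LPS is a glycolipid of the outer membrane of Gram-negative bacteria. It is sensed by Toll-like receptor 4 with MD-2 and CD14, and signals through the adaptors MyD88 and TRIF to NF-kB and to interferon regulatory factors. Alveolar macrophages are long-lived cells of the airspace that settle before and around birth, depend on GM-CSF, TGF-beta and PPAR-gamma, and clear surfactant lipid and inhaled particles. Inflammatory (classical, Ly6C-high) monocytes are short-lived cells made in bone marrow that enter tissues from blood through the chemokine receptor CCR2. After ip injection the LPS reaches the lung through the circulation, whereas an inhaled stimulus meets alveolar macrophages in the airspace first.

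Levels are given in TPM, a share of transcripts corrected for length, in the order A, B and, for AM, N, and a difference is log2(TPM+1) of iMo minus AM. TPM keeps no read depth, so the depth of each library is unknown and precision was judged from replicates. The Pearson correlation of log2(TPM+1) across genes was 0.928 between the iMo libraries and 0.958 to 0.977 among the AM libraries, against 0.666 to 0.741 between the cell types. TPM did not sum to a fixed total, and the main fit did not rescale it. The sums at 6h were 367323 and 407607 in iMo and 362554, 403225 and 380011 in AM. At 0h they were 506430 and 551635 in iMo and 382880 to 509796 in AM. Rn45s, a ribosomal RNA precursor, held 14.6 and 25.0% of the TPM sum in iMo and 15.1, 11.6 and 30.8% in AM at 6h. The median difference over the 8937 genes tested was -0.23, and every difference below is given relative to it. Calls, and the words higher and lower, rest on limma's adjusted p before that subtraction, at a threshold of 0.05. The log2(TPM+1) scale understates differences of low genes.

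At 6h the iMo and AM libraries differed in 2600 of the 8937 genes tested (29.1%). Of these, 941 were higher (10.5%) and 1659 were lower (18.6%) in iMo. Counts of called list members at 6h, given below, are to be read beside these shares. Lower genes were the more numerous, but not among the larger differences. At 4-fold or more, 487 called genes were higher and 414 lower, and at 32-fold or more 29 and 21. Libraries of the cell types did not overlap for 1873 genes higher (21%) and 3112 genes lower (34.8%) in iMo, more than were called. The share of calls that were higher, 36.2%, was 49.4% of 3456 calls after quantile normalization. Without iMo B the count was 1622. Within the shared title code, which leaves out AM N, it was 2361, with 2257 genes called in the same direction in both.

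**Figure D1:**
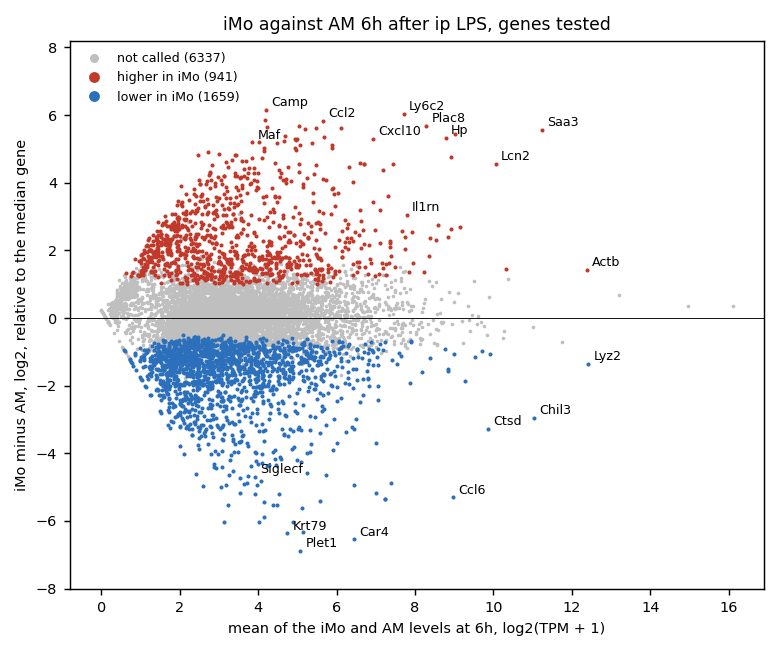
Each point is 1 of 8937 genes, with the mean of the iMo and AM levels on the horizontal axis as log2(TPM+1) and the log2 difference of iMo minus AM at 6h, relative to the median gene, on the vertical axis. Coloured points are the 941 genes called higher and 1659 called lower by limma, and the largest differences reach beyond 6 in either direction.

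The iMo libraries carried the monocyte program and the AM libraries the alveolar macrophage program, as their labels say. Ly6c2, which encodes the Ly6C surface protein of these monocytes, had 2103 and 1166 TPM in iMo, against 62.2, 33.4 and 9.15 TPM in AM, a difference of 6.03 (SE 0.74, limma adjusted p = 1.64e-06). Ccr2, the receptor for monocyte chemoattractants, had 121 and 133 TPM in iMo, against 2.77, 1.94 and 0.561 TPM in AM (5.85, SE 0.62, limma adjusted p = 2.31e-07). Both iMo libraries lay far above all 3 AM libraries, and within AM both genes were highest in A and lowest in N. Plac8, a small cysteine-rich protein of myeloid cells, differed by 5.69, and F13a1, the coagulation factor XIII A chain made by monocytes, by 5.64. Of 12 classical monocyte markers, 10 were higher and 1 lower, with a median difference of 5.18. The lower one was Mgst1, a microsomal glutathione transferase (-1.80), and its call was lost without iMo A. Fn1, fibronectin, was similar in level, with 58.8 and 49.1 TPM in iMo, against 69.8, 54.7 and 52.1 TPM in AM.

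All 24 alveolar macrophage markers were lower in iMo, with a median difference of -4.78. Siglecf, a sialic acid-binding lectin of the AM surface, had 1.35 and 2.19 TPM in iMo, against 97.6, 105 and 53.0 TPM in AM (-4.69, SE 0.55, limma adjusted p = 2.77e-07). Marco, a scavenger receptor for particles and bacteria, had 7.97 and 7.65 TPM in iMo, against 151, 176 and 160 TPM in AM (-3.98, SE 0.71, limma adjusted p = 6.91e-05). Pparg, the nuclear receptor that AM need for surfactant handling, had 2.39 and 2.29 TPM in iMo, against 49.0, 63.1 and 40.5 TPM in AM (-3.71, SE 0.46, limma adjusted p = 5.36e-07). Both iMo libraries lay below every AM library for all 3 genes, and Marco kept the highest level of the 3 in iMo. Fabp1, a fatty acid-binding protein, had 0 and 2.40 TPM in iMo, against 131, 177 and 118 TPM in AM. Ear1, an eosinophil-associated ribonuclease, had 1.19 and 4.28 TPM in iMo, against 250, 328 and 208 TPM in AM (-6.02). The Ear genes are near-identical copies that can share reads, so the split among them is uncertain.

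Among the 12 named genes most above AM were secreted proteins and surface proteins of monocytes. Ccl2, the chemokine that CCR2 binds, had 336 and 365 TPM in iMo, against 12.1, 9.34 and 1.79 TPM in AM (5.83, SE 0.53, limma adjusted p = 4.21e-08). Sdc4, a heparan sulfate proteoglycan, had 207 and 402 TPM in iMo, against 14.5, 6.32 and 1.88 TPM in AM (5.62, SE 0.58, limma adjusted p = 2.06e-07). Dusp2, a phosphatase of MAP kinases, had 159 and 340 TPM in iMo, against 9.33, 3.32 and 3.21 TPM in AM (5.58, SE 0.49, limma adjusted p = 2.27e-08). Each of these was at least as high in iMo B as in iMo A. Saa3, an acute-phase serum amyloid, was among the most abundant transcripts of iMo, with 20369 and 11401 TPM, against 832, 400 and 158 TPM in AM (5.57, SE 0.71, limma adjusted p = 2.88e-06). Ifitm3, an interferon-induced membrane protein that blocks virus entry, had 3288 and 3057 TPM in iMo, against 185, 93.0 and 35.5 TPM in AM (5.43). Ms4a6b and Ms4a4c, membrane proteins of myeloid cells, differed by 5.67 and 5.61. Camp, the cathelicidin antimicrobial peptide of granules, had the largest difference, with 172 and 119 TPM in iMo, against 1.36, 0 and 4.604 TPM in AM (6.15, SE 0.76, limma adjusted p = 2.05e-06).

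Most below AM was Plet1, a membrane protein of AM, with 0.459 and 4.62 TPM in iMo, against 391.6, 465 and 337 TPM in AM (-6.88, SE 0.81, limma adjusted p = 3.92e-07). Car4, a carbonic anhydrase on the cell surface, had 3.93 and 13.2 TPM in iMo, against 1045, 1331 and 541 TPM in AM (-6.54, SE 0.69, limma adjusted p = 9.91e-08). Fcor, a regulator of the transcription factor Foxo1, was listed at 0 in both iMo libraries and had 71.0, 94.2 and 66.0 TPM in AM (limma adjusted p = 6.41e-08). No iMo library overlapped an AM library for these genes. Krt79 (-6.37) and Krt19 (-5.52) are keratins, Atp6v0d2 (-6.33) is a subunit of the proton pump, and Mrc1 (-5.63) is the mannose receptor CD206. Hebp1, a heme-binding protein, and Trim29, a TRIM-family regulator, both differed by -5.54. Plet1os (-5.88) is transcribed from the opposite strand of Plet1, and reads of such pairs cannot be told apart unless strand was counted. The 5 libraries are ordered by cell type in the plot of the most different genes.

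**Figure D2:**
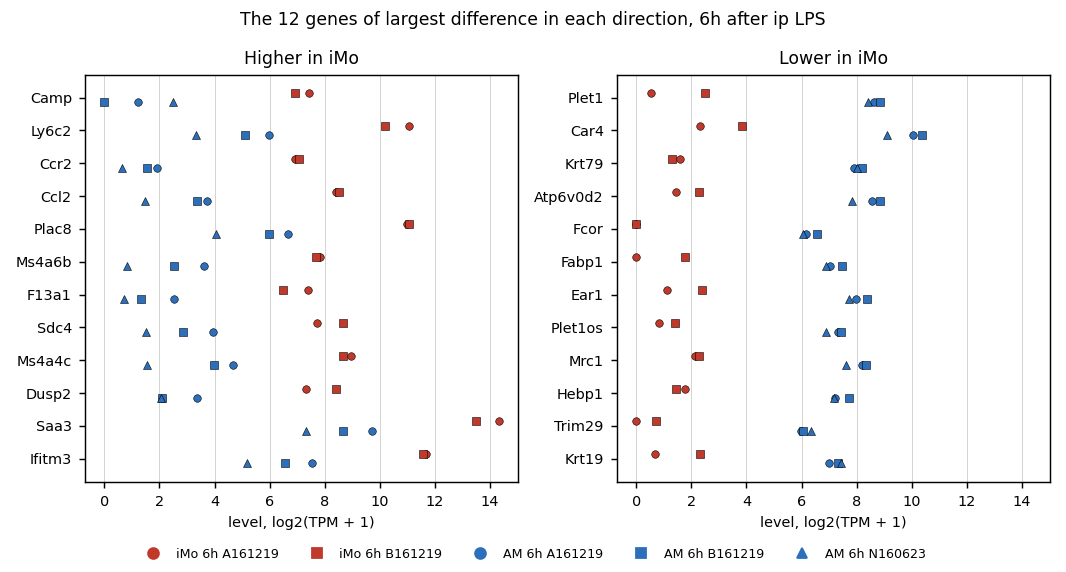
Levels of the 12 named genes most higher and the 12 most lower in iMo at 6h, as log2(TPM+1) per library, with iMo drawn first. In every row the 2 iMo points and the 3 AM points are separate, and for genes higher in iMo the AM points are spread more widely than the iMo points.

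Transcripts that were high in iMo were found in the AM libraries in 1 order. Of the 50 genes most higher in iMo, 42 (84.0%) had more TPM in AM A than in AM B and more in AM B than in AM N, against 24.5% of all genes tested. The median level of these 50 genes was 5.21% of the iMo mean in AM A, 2.75% in AM B and 1.08% in AM N. Conversely, the 50 genes most lower in iMo stood at a median of 1.48% of the AM mean in iMo A and 1.93% in iMo B. The part of this order in the differences was not tested. In bulk samples, fewer cells of a type and less RNA per cell cannot be told apart.

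Markers of other cell types were read in the same libraries. Neutrophil markers were higher in iMo for 9 of 12, with a median of 2.51, and none was lower. Ngp, a granule protein of immature neutrophils, had 228 and 230 TPM in iMo, against 5.12, 3.24 and 14.8 TPM in AM (5.18). S100a8 and S100a9, the calprotectin subunits of neutrophils and monocytes, had 1572 and 781 TPM and 969 and 512 TPM in iMo. In AM they had 194, 214 and 211 TPM and 142, 159 and 175 TPM. Ly6g, which defines mature neutrophils, had 1.84 and 1.33 TPM in iMo, against 0, 0 and 0.628 TPM in AM. Cxcr2, their chemokine receptor, had 2.78 and 2.00 TPM in iMo, against 1.95, 2.29 and 1.51 TPM in AM. The summed list had 3088 and 1797 TPM in iMo, against 379, 416 and 443 TPM in AM. Ngp, Camp, Ltf and Elane are made by neutrophil precursors. Ly6g and Cxcr2 were at or under 2.78 TPM in all 5 libraries. Csf3r, of the same list, had 36.3 and 27.5 TPM in iMo, against 6.77, 4.675 and 2.88 TPM in AM (2.78). The stage of any neutrophil cells in these libraries was not tested.

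Of the remaining marker lists, nonclassical monocyte genes were higher for 4 of 9 and lower for 0, with a median of 0.97. They included Pou2f2, a B cell and myeloid transcription factor (5.18), and Nr4a1, the nuclear receptor that nonclassical monocytes need (3.05). Interstitial macrophage genes were higher for 3 of 14 and lower for 1, Trem2, whose call was lost without iMo A, iMo B or AM B. The higher ones numbered 7 with the 5 libraries alone and 5 after quantile normalization or rescaling. Maf (5.20) and Stab1 (3.67) were among the higher ones, and the complement genes C1qa, C1qb and C1qc were not called. Lymphocyte markers were higher for 3 of 6, which were the killer cell genes Nkg7, Gzma and Ncr1. All 10 members of the list summed to 41.0 and 103 TPM in iMo, against 9.80, 9.30 and 1.84 TPM in AM. Epithelial markers were lower for 4 of 8 and higher for 1, Hopx, which was not called with no filter, and lower for 2 without iMo B. Epcam and Cdh1, adhesion proteins of epithelium, were among the lower, with 27.6 and 23.9 TPM summed over the list in iMo, against 51.4, 54.3 and 53.8 TPM in AM. Pecam1 was the 1 endothelial gene of 10 that was higher, with 3 higher after quantile normalization, and the list summed to 15.5 and 23.2 TPM in iMo, against 8.48, 7.83 and 5.46 TPM in AM. Dendritic cell markers were lower for 1 of 5 (Ccl22, lost without iMo A or AM N), at 6.86 and 15.2 TPM summed in iMo, against 11.02, 13.8 and 17.6 TPM in AM. No erythroid gene of 4 and no fibroblast gene of 1 was called, and no eosinophil gene was high enough to test. Listed at 0 in both iMo libraries were Timd4, Prg2, Tmem100 and Hbb-bt. The part of these cells in the differences was not tested.

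Genes induced by type I interferon were higher in iMo at 6h, and they were so at 0h. Of 32 tested, 31 were higher and none lower, with a median of 3.12, while at 0h all 32 were higher, with a median of 3.32. The change between the times had a median of -0.28, with 3 called lower and none higher. Those called lower numbered 1 without AM A or iMo B of 6h or without iMo A or iMo B of 0h, and 11 with array weights. At 6h the libraries of the cell types did not overlap for any of the 32, with iMo above AM, against 21% of all genes tested. Irf7, the transcription factor that amplifies interferon production, had 857 and 442 TPM in iMo, against 75.1, 31.8 and 15.5 TPM in AM (4.38, SE 0.61, limma adjusted p = 1.24e-05). Mx1, a GTPase that restricts influenza virus, had 52.6 and 63.8 TPM in iMo, against 4.16, 1.35 and 0.776 TPM in AM (4.63, SE 0.46, limma adjusted p = 1.31e-07). Rsad2, which makes the antiviral nucleotide analog ddhCTP, had 65.9 and 142 TPM in iMo, against 8.82, 7.08 and 2.89 TPM in AM (4.08, SE 0.54, limma adjusted p = 6.63e-06). Isg15, a ubiquitin-like modifier, had 328 and 125 TPM in iMo, against 27.9, 19.9 and 7.26 TPM in AM (3.80). Slfn5 differed by 4.13. The iMo libraries were not ordered alike across these genes, since Irf7 and Isg15 were higher in iMo A and Rsad2 in iMo B. Irf9, a subunit of the interferon-activated ISGF3 complex, was not called (1.21, limma adjusted p = 0.0824), with 37.7 and 35.0 TPM in iMo, against 20.4, 22.2 and 12.5 TPM in AM. Stat2, a subunit of the same complex, was higher (1.80).

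The interferon-inducible GTPases, which attack the vacuoles of intracellular pathogens, were higher for 11 of 13 and lower for none, with a median of 2.83, and at 0h for 11 of 13, with a median of 2.95. None was called in the change between the times. Ifi47 differed by 4.10, Gbp2 by 3.44, Gbp3 by 3.33 and Gbp5 by 3.13, and the call of Gbp2 was lost without iMo B. Irgm1 had 85.1 and 138 TPM in iMo, against 20.1, 23.0 and 10.7 TPM in AM (2.82). These GTPases are close paralogs and the split of reads among them is uncertain. Of the interferons, only Ifnb1, interferon beta, was in the lists read here. It was listed at 0 in both iMo libraries and in AM A and B, with 0.375 TPM in AM N. The receptor chains Ifnar1 (2.17), Ifnar2 (1.39) and Ifngr2 (1.58) were higher in iMo, and Ifngr1 had 36.2 and 45.9 TPM in iMo, against 89.0, 100 and 67.7 TPM in AM.

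Promoters of these genes were read from RefSeq (GRCm38.p6) over 250 bases before to 50 after the start, which 7082 of the 8937 tested genes had. The core of the interferon-stimulated response element, GAAA and again GAAA after any 2 bases, was searched on both strands with any overlap. It was held by 4.4% of all 7082 promoters, by 12.1% of the 719 of genes higher in iMo and by 2.6% of the 1336 of genes lower in iMo. It was in 13 of 22 promoters of the interferon-stimulated list and in 8 of 9 of the GTPase list. Shown are 80-base windows of 3 genes named above, each 5′ to 3′ on the gene's strand with the match in capitals, to let the spacing of the motif be read beside the levels. All 3 genes lie on the minus strand, at chr4:156200855-156200934 for Isg15, chr12:26456543-26456622 for Rsad2 and chr11:48871421-48871500 for Irgm1.
Isg15: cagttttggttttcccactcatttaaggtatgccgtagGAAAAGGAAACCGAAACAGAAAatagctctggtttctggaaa
Rsad2: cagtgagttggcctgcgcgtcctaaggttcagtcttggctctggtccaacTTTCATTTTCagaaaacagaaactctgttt
Irgm1: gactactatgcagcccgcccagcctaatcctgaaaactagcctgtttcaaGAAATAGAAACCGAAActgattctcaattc
The Isg15 and Irgm1 windows hold overlapping matches, which are capitalised as 1 run, and the Rsad2 match is on the reverse strand. Motif matches are a description of these windows and no measure of binding.

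MHC class I and immunoproteasome genes were higher for 5 of 12 and lower for none, with a median of 1.24. The count was 9 of 12 after quantile normalization or rescaling without Rn45s and Lars2, and 8 with the replicate block. Tap1, the peptide transporter, had 120 and 107 TPM in iMo, against 25.0, 18.9 and 12.7 TPM in AM (2.80, SE 0.41, limma adjusted p = 3.66e-05). Nlrc5, the activator of class I genes, differed by 2.93, Psmb9, an immunoproteasome subunit, by 2.16 and Tapbp, which loads peptides, by 1.75. H2-D1, a class I heavy chain, overlapped between the cell types, with 763 and 614 TPM in iMo, against 726, 749 and 445 TPM in AM.

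MHC class II genes had a median of -0.93, with 2 of 10 lower and none higher, close to the 18.6% of all genes called lower. The count was 1 without iMo A, iMo B or AM B, and 6 of 10 were lower and 1 higher when the 5 libraries were fitted alone, 6 with the replicate block and 5 with a title code term. H2-DMa, which edits the peptides on class II molecules, had 26.1 and 20.6 TPM in iMo, against 95.9, 121 and 80.9 TPM in AM (-1.80, SE 0.47, limma adjusted p = 0.00186). H2-DMb2, its partner, was listed at 0 in both iMo libraries, with 1.38, 3.43 and 0.922 TPM in AM. H2-Ab1, a class II beta chain, had 29.9 and 40.0 TPM in iMo, against 89.3, 89.8 and 46.7 TPM in AM, without overlap and without a call (limma adjusted p = 0.341). Cd74, the invariant chain, overlapped, with 175 and 252 TPM in iMo, against 280, 279 and 109 TPM in AM.

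Of 14 proinflammatory cytokine genes, 6 were higher and 2 lower, with a median of 1.01, and the lower share was below the 18.6% of all genes. Ebi3, a subunit of interleukin 27, had 81.2 and 115 TPM in iMo, against 8.08, 4.13 and 3.33 TPM in AM (4.28, SE 0.46, limma adjusted p = 3.79e-07). Il6, the main inducer of acute-phase proteins, had 9.68 and 4.82 TPM in iMo, against 0.474, 0.471 and 0.253 TPM in AM (2.72, SE 0.39, limma adjusted p = 2.22e-05). Il1b, the secreted interleukin 1, had 242 and 145 TPM in iMo, against 43.9, 43.1 and 15.8 TPM in AM (2.78, SE 0.77, limma adjusted p = 0.0138), and its call was lost without iMo A or AM N. Levels of Il6 were low and those of Il1b high in iMo, and for all 3 genes the cell types did not overlap. The lower genes were Il1a, with 2.15 and 1.24 TPM in iMo, against 11.9, 15.2 and 7.31 TPM in AM (-1.96), and Il18, with 37.1 and 36.3 TPM in iMo, against 232, 355 and 180 TPM in AM (-2.49). Both encode members of the interleukin 1 family. Tnf had 12.8 and 12.2 TPM in iMo, against 9.13, 7.46 and 4.71 TPM in AM, and was not called (1.00, limma adjusted p = 0.185).

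Of 21 chemokine genes, 9 were higher and 4 lower, with a median of 0.57, and 8 and 2 without iMo A. The lower share was near the 18.6% of all genes called lower, and the higher share above the 10.5% called higher. Beside Ccl2, the interferon-induced Cxcl10, which attracts T cells through CXCR3, had 612 and 816 TPM in iMo, against 44.2, 40.6 and 3.94 TPM in AM (5.30, SE 0.99, limma adjusted p = 0.000362). Ccl5, which attracts T cells and monocytes, had 2155 and 2530 TPM in iMo, against 223, 119 and 37.2 TPM in AM (4.76, SE 0.78, limma adjusted p = 8.68e-05). Within AM, both were highest in A and lowest in N. Ccl7 (4.28) and Ccl12 (4.30), further ligands of CCR2, and the macrophage inflammatory proteins Ccl4 (4.30) and Ccl3 (1.89) were also higher. Ccl6 was the most abundant chemokine of AM, with 54.9 and 94.7 TPM in iMo, against 3202, 4509 and 2649 TPM in AM (-5.30, SE 0.68, limma adjusted p = 1e-06). Ccl17, a ligand of CCR4, had 1.66 and 4.77 TPM in iMo, against 43.8, 84.0 and 105 TPM in AM (-4.01). The neutrophil chemoattractants Cxcl1, Cxcl2 and Cxcl3 were no higher in iMo. Cxcl2 had 12.5 and 18.04 TPM in iMo, against 27.9, 36.2 and 22.3 TPM in AM, and Cxcl1 was listed at 0 in both iMo libraries. Only Cxcl3 of these was called (-2.37).

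The receptors for these ligands and for adhesion were higher for 7 of 18 and lower for 2, with a median of 1.01. Ccr2 has been given above. Itgam, the CD11b integrin chain, had 275 and 116 TPM in iMo, against 11.4, 4.25 and 1.58 TPM in AM (5.25, SE 0.75, limma adjusted p = 1.39e-05). Both iMo libraries lay far above all AM libraries for Itgam. Itgax, the CD11c integrin chain, had 3.59 and 1.37 TPM in iMo, against 86.1, 78.2 and 66.5 TPM in AM (-4.33). Itgb1 was the other lower gene (-0.76), and the count of lower genes was 1 without AM A, AM B, AM N or iMo B.

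Of the NF-kB pathway, 12 of 15 genes were higher and none lower, with a median of 1.78, and 6 without iMo A. Ikbke, a kinase of the interferon and NF-kB routes, had 119 and 83.7 TPM in iMo, against 9.04, 5.89 and 3.53 TPM in AM (4.12, SE 0.51, limma adjusted p = 2.84e-06). Traf1 had 14.6 and 14.7 TPM in iMo, against 1.65, 0.570 and 0.689 TPM in AM (3.26), and Tnip1, which restrains signalling with A20, had 110 and 78.6 TPM in iMo, against 19.2, 14.7 and 11.3 TPM in AM (2.80). Nfkbia, the inhibitor that NF-kB itself induces, had 445 and 730 TPM in iMo, against 199, 207 and 159 TPM in AM (1.83, limma adjusted p = 0.033). The inhibitors Nfkbie (2.50) and Nfkbib (1.35) were higher beside the subunits Nfkb2 (1.78) and Relb (1.86). The subunits Rela (0.47), Rel (0.47) and Nfkb1 (1.15) were not called.

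The kappaB sequence, GGGA, any base, TT, any base and CC, searched as above, was in 1.7% of the 7082 promoters, 3.2% of those of genes higher in iMo and 1.4% of those of genes lower in iMo. It was in 5 of 12 promoters of the NF-kB list (Nfkb2, Rel, Nfkbia, Tnip1 and Bcl3) and in 4 of 14 of the chemokine list (Cxcl1, Cxcl2, Cxcl3 and Cxcl10). So the match was shared by Cxcl10, which was higher in iMo, and by Cxcl2, which was not called. Shown with matches in capitals are the windows of Nfkbia (chr12:55492648-55492727) and Tnip1 (chr11:54962968-54963047) and both motifs of Cxcl10, the interferon element at chr5:92349060-92349139 and the kappaB match at chr5:92348963-92349042, all on the minus strand.
Nfkbia: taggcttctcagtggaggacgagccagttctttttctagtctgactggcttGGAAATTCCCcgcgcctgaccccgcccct
Tnip1: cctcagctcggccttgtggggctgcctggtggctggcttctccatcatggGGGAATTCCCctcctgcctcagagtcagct
Cxcl10 interferon element: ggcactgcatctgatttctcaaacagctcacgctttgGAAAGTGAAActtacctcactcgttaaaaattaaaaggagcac
Cxcl10 kappaB: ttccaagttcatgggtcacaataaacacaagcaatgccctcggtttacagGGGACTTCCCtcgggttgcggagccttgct
The nearest base of the Cxcl10 matches lies 204 and 94 bases before the start, and that of Nfkbia and Tnip1 20 and 48 bases before it. The Nfkbia match is on the reverse strand.

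Of 17 genes of the TLR4 pathway, 4 were higher and 2 lower, with a median of 0.36. The counts were 2 and 3 without iMo A, and 8 and 3 after quantile normalization or rescaling without Rn45s and Lars2. Lower genes numbered 4 with array weights or a title code term. Tlr4 had 3.10 and 2.85 TPM in iMo, against 14.5, 16.6 and 7.40 TPM in AM (-1.51, SE 0.45, limma adjusted p = 0.00517; 0.0502 without iMo B). Tlr2, a sensor of bacterial lipoproteins, had 28.1 and 43.9 TPM in iMo, against 96.5, 116 and 62.1 TPM in AM (-1.08), a call lost without iMo A, AM A or AM B. Cd14, the co-receptor, had 89.6 and 132 TPM in iMo, against 39.7, 46.8 and 62.9 TPM in AM (1.36, limma adjusted p = 0.0539). The libraries of the cell types did not overlap for any of these 3 genes, and Cd14 was not called. The adaptors Ticam1 (TRIF, 1.80) and Myd88 (1.51) were higher in iMo. Irak3, an inhibitory kinase of the pathway, had 42.3 and 31.2 TPM in iMo, against 6.12, 3.30 and 3.74 TPM in AM (3.05, SE 0.38, limma adjusted p = 3.74e-06).

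Genes of the anti-inflammatory and feedback list were higher for 9 of 14 and lower for none, with a median of 2.54. Acod1, which makes the antibacterial metabolite itaconate, had 155 and 212 TPM in iMo, against 12.4, 5.18 and 1.89 TPM in AM (5.10, SE 0.53, limma adjusted p = 2.06e-07). Socs1, an inhibitor of interferon signalling, had 48.0 and 133 TPM in iMo, against 3.02, 2.80 and 2.05 TPM in AM (4.72, SE 0.77, limma adjusted p = 7.89e-05), and Socs3, an inhibitor of interleukin 6 signalling, differed by 3.68. Il1rn, the interleukin 1 receptor antagonist, had 389 and 882 TPM in iMo, against 98.7, 111 and 50.5 TPM in AM (3.05). Socs1 and Il1rn were more than 2 times as high in iMo B as in iMo A, and both iMo libraries lay above AM. Arg1 (3.31), the arginase, lost its call without iMo A. Among glucocorticoid-induced genes of this list, Tsc22d3 had 109 and 84.0 TPM in iMo, against 119, 125 and 113 TPM in AM, and Fkbp5 had 79.6 and 34.2 TPM in iMo, against 126, 132 and 89.3 TPM in AM, neither of them called.

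Immediate early genes were higher for 4 of 14 and lower for 2, with a median of 0.48, and without iMo B 1 and 2. Fos had 23.7 and 34.1 TPM in iMo, against 93.0, 98.1 and 136 TPM in AM (-1.66, limma adjusted p = 0.00717), a call lost without iMo A, and Egr2, a zinc finger factor, differed by -2.39. Genes of inflammasomes and lytic cell death were higher for 7 of 14 and lower for none, with a median of 1.02. Ninj1, which ruptures the membrane of dying cells, had 376 and 517 TPM in iMo, against 37.2, 23.7 and 9.44 TPM in AM (4.59, SE 0.86, limma adjusted p = 0.000379). Mefv (pyrin, 3.98), Ripk3 (2.99), Mlkl (2.92) and Casp4 (2.21), the mouse caspase-11 that senses LPS in the cytosol, were higher. Casp1 overlapped between the cell types, with 33.2 and 32.8 TPM in iMo, against 27.7, 34.2 and 20.9 TPM in AM, and Nlrp3 was not called (0.74).

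Of 12 eicosanoid genes, 2 were higher, 4 lower and 6 not called, with a median of -0.18. Alox5, the 5-lipoxygenase that starts leukotriene synthesis, had 0.601 and 1.73 TPM in iMo, against 46.4, 39.6 and 45.6 TPM in AM (-4.19, SE 0.37, limma adjusted p = 7.52e-09). Ltc4s, which makes leukotriene C4, had 3.88 and 8.37 TPM in iMo, against 262, 341 and 417 TPM in AM (-5.41, SE 0.49, limma adjusted p = 1.53e-08). Ptges, the prostaglandin E synthase, had 28.3 and 29.8 TPM in iMo, against 3.98, 2.64 and 1.62 TPM in AM (3.28, SE 0.39, limma adjusted p = 1.55e-06). For none of these 3 genes did the cell types overlap. Pla2g7, the phospholipase that degrades platelet-activating factor, was higher (5.03). Ptgs2, cyclooxygenase 2, was at or under 0.410 TPM in all 5 libraries.

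Genes of fatty acid uptake, storage and oxidation were lower in iMo for 15 of 21 and higher for 1, with a median of -1.45, and lower for 9 without iMo B. Cd36, a fatty acid and lipoprotein receptor, had 1.20 and 3.28 TPM in iMo, against 53.7, 65.0 and 24.2 TPM in AM (-3.65, SE 0.61, limma adjusted p = 3.08e-05). Cidec, a lipid droplet protein, had 1.97 and 3.19 TPM in iMo, against 157, 167 and 134 TPM in AM (-5.21). The enzymes of mitochondrial oxidation Cpt2 (-1.89), Acadvl (-1.62), Acadm (-1.52) and Cpt1a (-1.33) were lower by less than these lipid-handling genes. Acot7, an acyl-CoA thioesterase, was the 1 higher gene (2.47). Of 10 LXR and lipid efflux genes, 6 were lower and 1 higher, with a median of -1.43. The cholesterol exporters Abcg1 (-4.58) and Abca1 (-2.50), Pltp (-2.20), which transfers phospholipid, and Mylip (-1.89), which degrades the LDL receptor, were lower. Nr1h3, LXR-alpha itself, was the higher one, with 111 and 67.5 TPM in iMo, against 38.6, 42.1 and 23.5 TPM in AM (1.56), and it lost its call without iMo A or AM N. The receptor and several of its known targets lay on opposite sides, and Srebf1 and Apoe, also targets, were not called. Cholesterol synthesis genes were higher for 5 of 18 and lower for 1, Dhcr7 (-1.40). The count of higher genes was 3 without AM A or AM B, 2 without AM N or iMo B, 1 without iMo A, 2 with no filter and 8 after quantile normalization.

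Fabp1 and F7, markers of AM, both carry a direct repeat in their promoters. The repeat is AGG, any base and CA, given again after any 1 base, of the type that PPAR-gamma with RXR is known to bind. Searched as above, it was in 0.3% of the 7082 promoters and in 2 of 18 of the alveolar macrophage list. Among genes higher and lower in iMo the shares were 0.4% and 0.5%. F7, coagulation factor VII, had 12.4 and 6.25 TPM in iMo, against 333, 326 and 216 TPM in AM (-4.64, SE 0.47, limma adjusted p = 5.12e-08). Both genes lie on the plus strand, the windows at chr6:71199765-71199844 for Fabp1 and chr8:13025953-13026032 for F7, and both matches, in capitals, are on the reverse strand.
Fabp1: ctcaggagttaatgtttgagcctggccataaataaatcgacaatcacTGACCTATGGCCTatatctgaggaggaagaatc
F7: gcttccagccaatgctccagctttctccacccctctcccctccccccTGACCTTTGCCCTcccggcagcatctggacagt
Pparg itself was at 2.39 and 2.29 TPM in iMo, as given above. Its part in the levels of Fabp1 and F7 was not tested.

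Lysosomal and proton pump genes were lower for 12 of 25 and higher for none, with a median of -0.63. Ctsd, the protease cathepsin D, had 299 and 254 TPM in iMo, against 3719, 3885 and 2155 TPM in AM (-3.28, SE 0.55, limma adjusted p = 2.8e-05). Ctsk, cathepsin K, differed by -5.45 and Gpnmb, a glycoprotein of lysosome-rich macrophages, by -3.81. Ctss, cathepsin S, had 735 and 515 TPM in iMo, against 1512, 2084 and 1094 TPM in AM (-1.07), a call lost without AM A, AM B or iMo B. Ctsb, another cathepsin, had 305 and 282 TPM in iMo, against 209, 203 and 157 TPM in AM, and was not called. Lyz2, lysozyme, was an abundant transcript lower in iMo, with 3733 and 2712 TPM, against 9823, 12523 and 6881 TPM in AM (-1.35, limma adjusted p = 0.017), and its call was lost without iMo B or AM B.

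Glycolysis genes were higher for 9 of 17 and lower for 2, with a median of 1.01. The count of higher genes was 4 without iMo A, 5 without AM N, 6 without iMo B or AM B and 7 without AM A. Slc16a3, the lactate exporter MCT4, had 70.0 and 58.9 TPM in iMo, against 15.3, 13.4 and 10.8 TPM in AM (2.44, SE 0.40, limma adjusted p = 0.000132). Slc2a1, the glucose importer GLUT1, had 41.2 and 33.7 TPM in iMo, against 11.5, 10.9 and 5.22 TPM in AM (2.20, SE 0.50, limma adjusted p = 0.004). Hk2, a hexokinase, differed by 1.53. Aldoa (-0.72) and Pfkp (-0.61) were the lower genes, and not all of the higher ones are named here. Respiratory chain genes were lower for 3 of 19, under the 18.6% of all genes called lower, and higher for none, with a median of -0.19. The count was none without iMo B, 5 with the replicate block or quantile normalization and 6 with a title code term or rescaling.

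Transcription factors of the myeloid lineages were higher for 12 of 26 and lower for 4, or 7 with the replicate block, with a median of 1.14. The lower share, 4 of 26, was under the 18.6% of all genes called lower. Klf2, a factor of quiescent leukocytes, had 107 and 204 TPM in iMo, against 12.02, 7.38 and 7.54 TPM in AM (4.15, SE 0.57, limma adjusted p = 1.05e-05). Irf5 (2.40) and Irf8 (2.09), the factor that monocytes need to develop, were higher. Spi1, which encodes PU.1 and is shared by both lineages, had 602 and 525 TPM in iMo, against 420, 463 and 298 TPM in AM, and was not called. Lower beside Pparg and Egr2 were Bhlhe40 (-2.58) and Bhlhe41 (-2.69), repressors that AM need for self-renewal. Cytokine receptors were higher for 7 of 16 and lower for 3, with a median of 1.07. Their lower share was near that of all genes. The higher ones numbered 4 without iMo A, iMo B or AM N, and the lower ones 5 after quantile normalization or rescaling and 6 with array weights, the replicate block or a title code term. Csf1r, the M-CSF receptor, had 198 and 126 TPM in iMo, against 47.3, 31.4 and 18.4 TPM in AM (2.57, SE 0.42, limma adjusted p = 0.000149). Tgfbr2, a chain of the TGF-beta receptor on which AM depend, had 4.24 and 6.61 TPM in iMo, against 65.2, 65.6 and 44.6 TPM in AM (-2.99, SE 0.40, limma adjusted p = 1.31e-06). Csf2rb, the signalling chain of the GM-CSF receptor, was lower by less, with 109 and 85.0 TPM in iMo, against 225, 209 and 149 TPM in AM (-0.76).

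Scavenger and lectin receptors were higher for 4 of 15 and lower for 8, with a median of -1.25. The count of higher genes was 2 without AM A and 1 without AM N or iMo A. Msr1, scavenger receptor A, had 184 and 118 TPM in iMo, against 11.3, 8.98 and 2.33 TPM in AM (4.55, SE 0.60, limma adjusted p = 6.24e-06), whereas the related Marco was lower. Clec7a, dectin-1 for fungal glucans, had 4.46 and 2.94 TPM in iMo, against 86.1, 116 and 30.0 TPM in AM (-3.65), and Olr1 differed by -3.93. Coagulation genes were higher for 3 of 8 and lower for 2, among them F7. Thbs1 (3.07), F10 (1.62) and F13a1 were the higher ones.

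All 6 acute-phase genes tested were higher, with a median of 4.01. Beside Saa3, Lcn2, which withholds iron from bacteria, had 5743 and 3958 TPM in iMo, against 308, 263 and 163 TPM in AM (4.56, SE 0.59, limma adjusted p = 4.63e-06). Hp, haptoglobin, had 3368 and 1982 TPM in iMo, against 151, 79.1 and 33.4 TPM in AM (5.34, SE 0.50, limma adjusted p = 5.95e-08). All 3 were higher in iMo A than in iMo B, and in AM they followed the order A, B, N. Saa1 and Saa2 are near-identical copies that can share reads, and Saa1 differed by 3.46. Iron and heme genes were higher for 5 of 12 and lower for 2, with a median of 0.90. Hmox1, heme oxygenase, had 387 and 214 TPM in iMo, against 86.0, 68.8 and 27.1 TPM in AM (2.61), and Slc11a1, the phagosomal metal transporter NRAMP1, had 106 and 107 TPM in iMo, against 12.7, 8.65 and 2.26 TPM in AM (4.05). Fth1, the ferritin heavy chain, overlapped between the cell types.

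**Figure D3:**
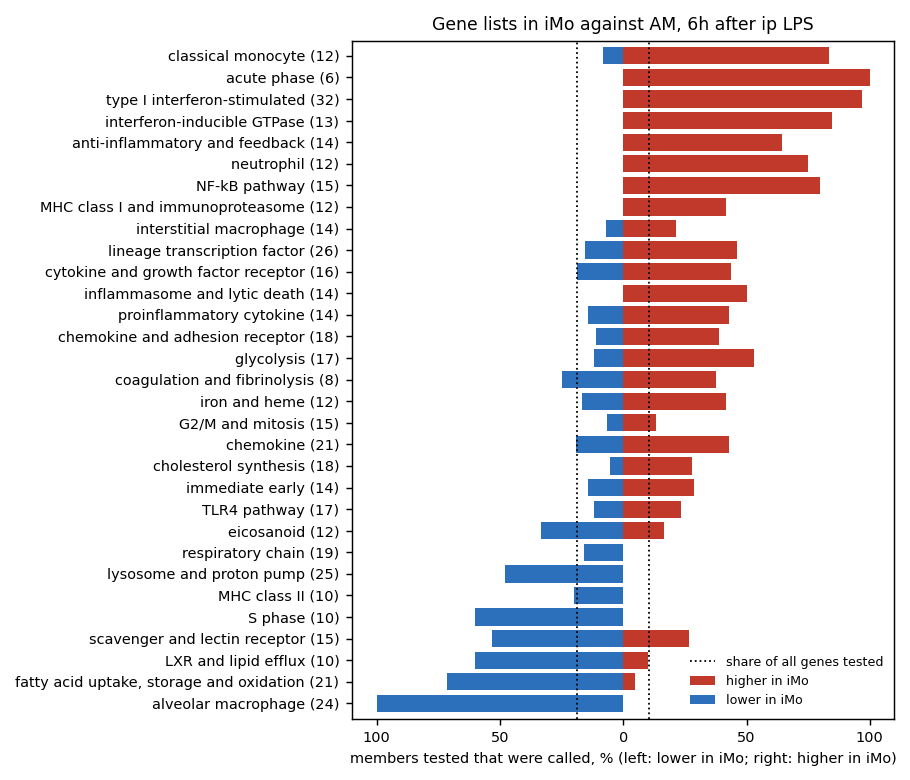
For each gene list, the bars give the percent of its tested members called higher (right) and lower (left) in iMo at 6h, and the dotted lines the 10.5% and 18.6% of all tested genes called in each direction. Interferon-stimulated genes reach 31 of 32 on the higher side and alveolar macrophage markers 24 of 24 on the lower side.

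Much of the difference at 6h was present in untreated mice. At 0h, with 2 iMo and 4 AM libraries, 2649 genes (29.6%) passed limma's threshold, of which 1448 were higher (16.2%) and 1201 lower (13.4%) in iMo. Of the 941 genes higher at 6h, 612 were also higher at 0h, 310 were not called and 19 were lower. Of the 1659 genes lower at 6h, 825 were also lower at 0h, 786 were not called and 48 were higher. The test of the change is the 6h difference minus the 0h difference, which limma called for 703 genes (7.87%), 184 higher (2.06%) and 519 lower (5.81%). Calls numbered 281 without iMo B of 0h, 349 without iMo A of 0h, 311 without iMo B of 6h and 428 without AM B of 6h. Of 1034 calls after quantile normalization 48.7% were higher, and of 891 after rescaling without Rn45s and Lars2 51.9%, against 26.2%. The iMo libraries of 0h have another title code than those of 6h, so in iMo the time and the code cannot be told apart. Differences of this kind are given relative to their own median, -0.34.

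**Figure D4:**
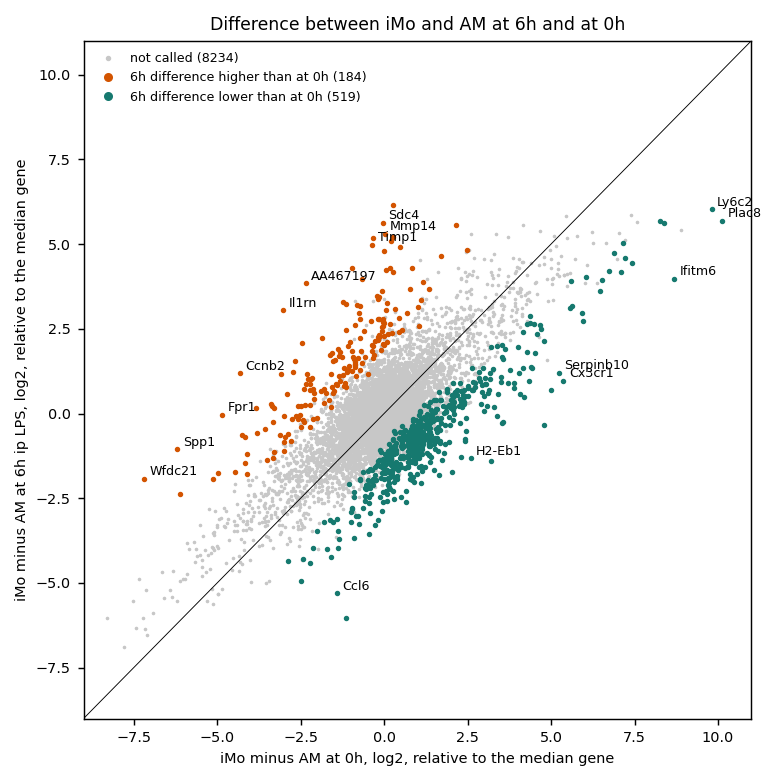
Each point is 1 of 8937 genes, with the log2 difference of iMo minus AM at 0h on the horizontal axis and at 6h on the vertical axis, both relative to the median gene. Coloured points are the 184 and 519 genes whose difference was called higher and lower at 6h than at 0h, and the named genes include Il1rn above the diagonal and Plac8 below it.

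The largest changes on the higher side are given first. AA467197, which hosts microRNA miR-147 and encodes a mitochondrial protein, had 191 and 231 TPM in iMo, against 17.4, 17.7 and 13.6 TPM in AM at 6h. At 0h it had 1.94 and 0 TPM in iMo, against 11.3, 9.45, 6.26 and 3.15 TPM in AM A, C, D and N, and the change was 6.16 (SE 0.69, limma adjusted p = 3.72e-05). The order of the cell types was reversed. Il1rn was likewise lower in iMo at 0h, with 11.4 and 15.2 TPM, against 137, 125, 156 and 42.1 TPM in AM, and changed by 6.03 (SE 0.77, limma adjusted p = 0.000129). Sdc4 changed by 5.61, and at 0h it was at or under 0.540 TPM in both cell types. Timp1 (5.29), which inhibits metalloproteases, and Mmp14 (5.24), a membrane metalloprotease, had 122 and 211 TPM and 187 and 167 TPM in iMo at 6h, against at most 8.25 and 11.8 TPM in AM.

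Anti-inflammatory and feedback genes as a list were called higher in this test for 5 of 14, with a median of 1.85. The count was 2 without iMo A of 0h and 3 without iMo B of 6h or AM N of 6h. The 5 genes were Il1rn, Acod1 (4.87), Cish (2.87), Nos2 (2.56) and Socs3 (2.30). Chemokines were called higher for 6 of 21 and lower for 2, and higher for 3 without iMo B of 0h or iMo B of 6h. Ccl7 was listed at 0 in all AM libraries of 0h and Ccl12 in both iMo libraries of 0h, so neither gets a fold, and Ccl3 (3.22), Ccl4 (3.42) and Cxcl16 (3.67) were among the others. Of the 12 neutrophil markers, 4 were called higher, the granule genes Ngp, Camp, Ltf and Elane. The sum over all 12 markers was 217 and 136 TPM in iMo at 0h, against 24.9 to 83.2 TPM in AM. Camp and Ngp were listed at 0 in at least 1 whole group of 0h and get no fold (limma adjusted p = 0.00218 and 0.000138).

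Genes of mitosis changed most as a list. At 6h, 2 of 15 were higher and 1 lower, with a median of 0.61. None was called without iMo A or AM B, 4 were higher with the 5 libraries alone or a pseudocount of 5 TPM, and 7 after quantile normalization. At 0h 13 of 15 were lower in iMo, and 11 of 15 were called higher in the difference, with a median of 2.70. Ccnb2, a mitotic cyclin, had 31.4 and 46.4 TPM in iMo, against 19.0, 21.0 and 17.5 TPM in AM at 6h, and 0 and 1.15 TPM in iMo, against 28.7, 28.0, 29.2 and 17.7 TPM in AM at 0h. The change was 5.47 (SE 0.54, limma adjusted p = 6.56e-06). Top2a, which untangles replicated DNA, had 16.0 and 12.3 TPM in iMo, against 9.86, 10.5 and 8.52 TPM in AM at 6h, and 0.592 and 1.11 TPM in iMo, against 7.31 to 8.19 TPM in AM at 0h (3.09, SE 0.40, limma adjusted p = 0.000233). AM were at nearly the same level at both times, and the change lay in iMo. Mki67 changed by 2.51. The S phase list did not follow, with 1 of 10 called higher (Rrm2, 2.39) and none without iMo B of 0h. At 6h itself 6 of 10 S phase genes were lower in iMo, with a median of -1.20, and 2 without iMo B. They included Gins2 (-1.87), Mcm6 (-1.43) and Mcm7 (-1.35), replication factors.

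Class II genes went the other way. Called lower in the difference were 5 of 10, with a median of -2.01. The count was 1 with the replicate block, 2 with no filter, 0 without iMo B of 0h, 1 without iMo B of 6h and 2 without iMo A or AM B of 6h. H2-Eb1, a class II beta chain, had 4.07 and 4.75 TPM in iMo, against 18.4, 16.1 and 10.9 TPM in AM at 6h. At 0h it had 100 and 813 TPM in iMo, against 53.6, 37.5, 76.6 and 19.5 TPM in AM (-3.96, SE 1.05, limma adjusted p = 0.0128), and the call was lost without iMo B of 0h (0.155) or iMo B of 6h (0.0531). Both iMo libraries of 0h lay above the AM libraries of 0h, B far above A. The class II regulator Ciita was not called (-0.74).

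Also lower in the difference were Cx3cr1, the fractalkine receptor of nonclassical monocytes, and Ifitm6, of the interferon-induced membrane proteins. Cx3cr1 had 1.58 and 1.13 TPM in iMo, against 0.502, 0.428 and 0.268 TPM in AM at 6h, and 75.5 and 54.5 TPM in iMo, against 0.399 to 0.453 TPM in AM at 0h (-4.43, SE 0.68, limma adjusted p = 0.000212). Plac8 changed by -4.47 and Ifitm6 by -4.76 and both stayed higher in iMo at 6h. In AM, Plac8 had 15.4 to 99.8 TPM at 6h, against 0.723 to 8.16 TPM at 0h. Ccl6 had 54.9 and 94.7 TPM in iMo, against 2649 to 4509 TPM in AM at 6h, and 1497 and 1246 TPM in iMo, against 1670 to 6095 TPM in AM at 0h (-3.91, SE 0.93, limma adjusted p = 0.00646). Cryba4 (-5.15), Serpinb10 (-4.06) and Fcor were low or absent at 6h in iMo and had 27.5 and 38.0 TPM, 37.9 and 54.5 TPM and 52.5 and 22.1 TPM there at 0h. Classical monocyte markers were called lower in the difference for 5 of 12, with a median of -2.06, for 1 without iMo B of 6h and for 10 with array weights.

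**Figure D5:**
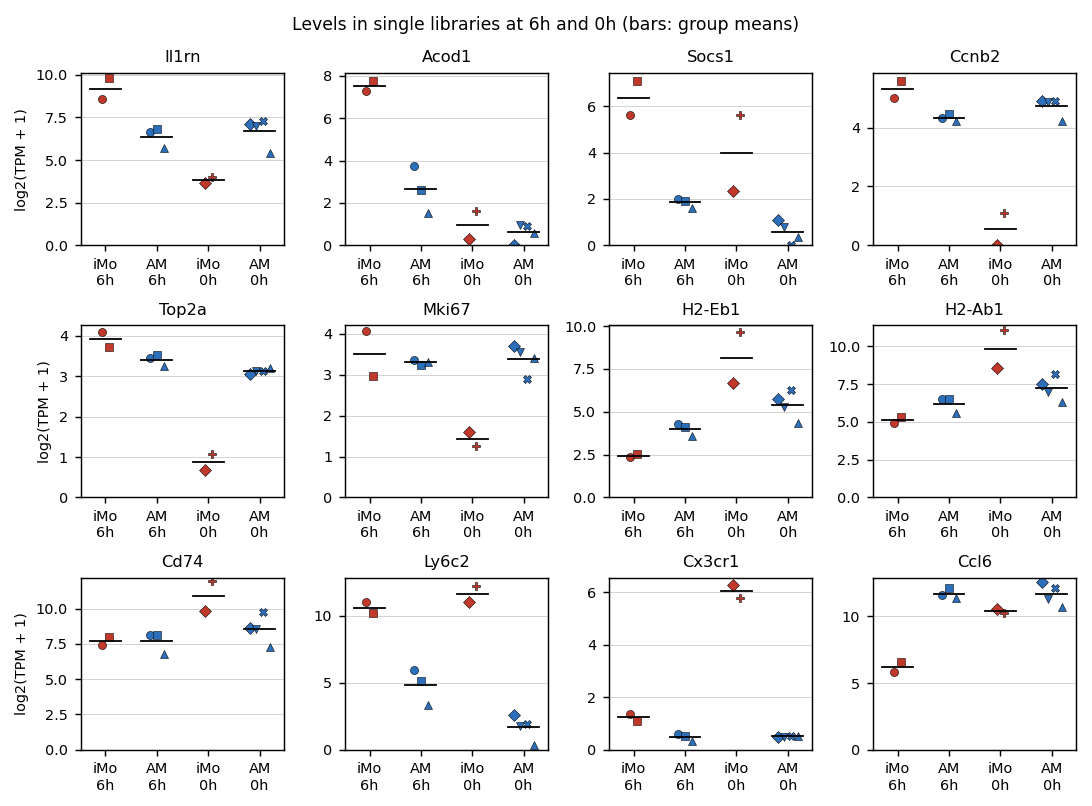
Levels of 12 genes as log2(TPM+1) in iMo at 6h, AM at 6h, iMo at 0h and AM at 0h, with points for libraries and bars for group means. Il1rn, Acod1 and Socs1 are highest in iMo at 6h, Ccnb2, Top2a and Mki67 are lowest in iMo at 0h, and H2-Eb1, Cx3cr1 and Ccl6 are lower in iMo at 6h than in iMo at 0h.

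Transcript length moved with the change between the times. In the 884 shortest transcripts, of 143 to 1119 bases, the median difference was -0.31 at 6h and 0.40 at 0h, and 16.4% were called lower in the change. In the 883 longest the medians were 0.12 and -0.07, and 3.2% were called lower. The 48 genes lower in iMo at 6h and higher at 0h included Fos. Among them were also short transcripts of the respiratory chain and ribosome such as Ndufa2, Ndufa6, Ndufa7, Uqcrh and Rps21. The 19 genes of the opposite kind included Il1rn, Nr1h3, Ptges, Tnfaip3, Srebf2 and the mitotic Cdc20 and Cenpa. Class II genes had a median length of 1446 bases and mitotic genes of 3334, against 2808 over all genes. Lists of short median length lay on both sides of the change. Median changes were 1.71 for acute-phase genes (845 bases), 1.40 for neutrophil markers (1103) and 1.48 for chemokines (1150). They were -2.06 for classical monocyte markers (1534) and -1.19 for erythroid and platelet genes (663.5). The part of length in these changes was not tested.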

How the data were processed

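Gene levels were used as deposited, in a table of TPM per gene and library, with no counts. Per the submitters' processing notes the tools were STAR and HOMER and the genome build mm10. Versions and annotation: not given in the sources used here. Groups follow the labels of cell type, route and time. Of the 45 columns, 18 of nasal samples were not used, since their row names do not match the other columns. The members and gene lists were chosen with earlier results of these data known.

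Of 23594 rows, 8937 reached 5 TPM in 2 or more of the 27 libraries of untreated mice and mice given LPS ip and were tested. limma 3.58.1 in R 4.3.3 was fitted to log2(TPM+1) over 12 groups with a mean-variance trend, leaving 15 residual degrees of freedom, and p-values were adjusted by the Benjamini-Hochberg method over all genes tested. The change between times is the 6h difference less the 0h difference. The fit was tested on simulated data: for the 6h comparison it recovered 86% of 200 genes changed 4-fold and 5% of those changed 2-fold among 8937. For the change between times it recovered 44% at 4-fold and 0% at 2-fold, so an uncalled change there does not show that none took place. Near-identical gene copies rest on the authors' counting. TPM keeps no depth, so no counting interval is given.

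Named genes were the 12 called genes of largest difference in each direction without overlap and with at least 10 TPM. Per list, up to 4 called members of largest difference were named, or the member of largest difference where none was called. Also named were 9 defining markers, the 8 largest changes between times in each direction and the 6 most abundant called genes in each direction. Other list members were named after their values were seen. Some list members are counted but not reported by name. Alternatives were other pseudocounts and filters, other scalings, array weights, a title code term, a replicate block, the 5 libraries alone and leaving out each library.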

Additional observations from a re-analysis of the deposited data

Results flagged for a closer look

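The difference between iMo and AM at 6h was set against that at 0h, and limma called the change itself for the following genes named by rule. Higher at 6h than at 0h were AA467197 (6.16), Il1rn (6.03), Sdc4 (5.61), Ccnb2 (5.47), Timp1 (5.29) and Mmp14 (5.24), on the log2 scale relative to the median gene. Lower were Cryba4 (-5.15), Ifitm6 (-4.76), Plac8 (-4.47), Cx3cr1 (-4.43), Serpinb10 (-4.06), H2-Eb1 (-3.96) and Ccl6 (-3.91). Camp (limma adjusted p = 0.00218), Ngp (0.000138) and Fcor (0.000521) were also called, and each has a group listed at 0, so no fold is given.

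Among the 4 AM libraries of 0h, AM N had 17.7 TPM of Ccnb2 and AM C had 180.6 TPM of Ear1, each apart from the other libraries relative to the group's range. AM N also had 0.467 TPM of Cryba4, which was listed at 0 in the others, a gap at the bottom of the scale. Chance alone marks about 1 in 20 such groups.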

How the results depend on the processing

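The count of genes called at 6h, 2600, was 2149 to 3456 under the other settings and 1622 to 2361 when 1 library was left out, and the replicate block gave 3105. The count for the change between times, 703, was more sensitive. It was 450 with no filter, 1253 with array weights and 235 with the replicate block, 1034 after quantile normalization and 1014 with a term for the title code, and 281 to 797 when 1 library was left out. The cause was not tested. The labels do not tie replicate letters to animals, so the main fit did not treat the letters as pairing. Deviations of libraries with the same letter correlated at 0.12 and 0.0358 over 2 pairs. With 2 iMo libraries their deviations mirror each other, so these correlations cannot settle whether the letters mark pairs. Of 142 named genes called at 6h, 115 kept their call and direction under every alternative, 27 lost it under at least 1 and 0 reversed. Of 16 named for the change, 14 kept it and H2-Eb1 and Ccl6 lost it, Ccl6 under the block (0.103). Col3a1, iMo against AM at 6h ip, not called, was 0.16 and turned to -0.0669 with no filter, -0.3584 with a pseudocount of 0.1, -0.0205 after quantile normalization, -0.0296 after rescaling and ranged over -0.0207 to 0.3202 when 1 library was left out. With 2 iMo libraries and no read depth, a call missed at low levels does not show equal levels.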
